A study of Mus musculus with 12 samples.

Results

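The livers of high-fat diet (HFD) mice given narciclasine (ncls) were compared with the livers of HFD mice given vehicle (veh), from 1 RNA-seq library of each. The table holds 22276 gene symbols, and 9956 had at least 1 FPKM in either library, a unit that scales fragment counts to exon length and to the size of the library. From these, 56 genes typical of muscle were left out, namely those whose mean over the muscle libraries was at least 10 FPKM and 20 or more times their median over the 9 non-muscle libraries. The remaining 9900 genes are described here. All mice were male C57BL/6J mice killed at 17 wk of age. HFD-veh and HFD-ncls mice were fed the HFD from 8 wk of age, and NCD-veh mice, whose liver library is given beside the others, were fed a normal chow diet (NCD). Vehicle or ncls was given from 10 wk of age for 7 wk, ncls at 1 mg/kg weekly by oral gavage. How many mice each library stands for is not stated in the sources used here. With 1 library per group there is no spread between animals, so differences are given as values with no test, and a library of another mouse could differ by as much. A 2-fold difference on the scale of log2(FPKM + 0.1), in HFD-ncls minus HFD-veh, is used as a line for counting only. Where 3 values follow a gene they are FPKM in the HFD-ncls, HFD-veh and NCD-veh livers, in this order, and a number in brackets after them is the log2 change from HFD-veh to HFD-ncls. In bulk liver RNA, fewer cells of a type and less RNA per cell cannot be told apart.

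Narciclasine is an alkaloid of daffodil bulbs and other plants of the amaryllis family. The liver stores and exports fat: hepatocytes build fatty acids and cholesterol under the control of the SREBP transcription factors, and burn fatty acids under the control of PPAR-alpha. Hepatocytes also make most plasma proteins, bile acids and drug-metabolizing cytochrome P450 enzymes. In rodents many of these enzymes differ between the sexes, because males and females release growth hormone in different rhythms and the liver reads these rhythms through the JAK-STAT pathway.

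Most liver genes had similar levels in the HFD-ncls and HFD-veh libraries. Of the 9900 genes, 99 (1.00%) were over 2-fold higher and 116 (1.17%) over 2-fold lower in HFD-ncls, and 85.2% were within 1.4-fold. In either direction and by any amount, 5193 genes (52.5%) were higher in HFD-ncls. The median log2 change was 0.02, with the first percentile at -1.10 and the 99th at 1.00. Over 4-fold differences were found for 15 higher and 21 lower genes. Many of the genes past 2-fold were expressed at low levels: 33 of the higher and 44 of the lower ones reached 5 FPKM. The scatter plot of both libraries shows the narrow band of most genes and the genes that left it.

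**Figure D1:**
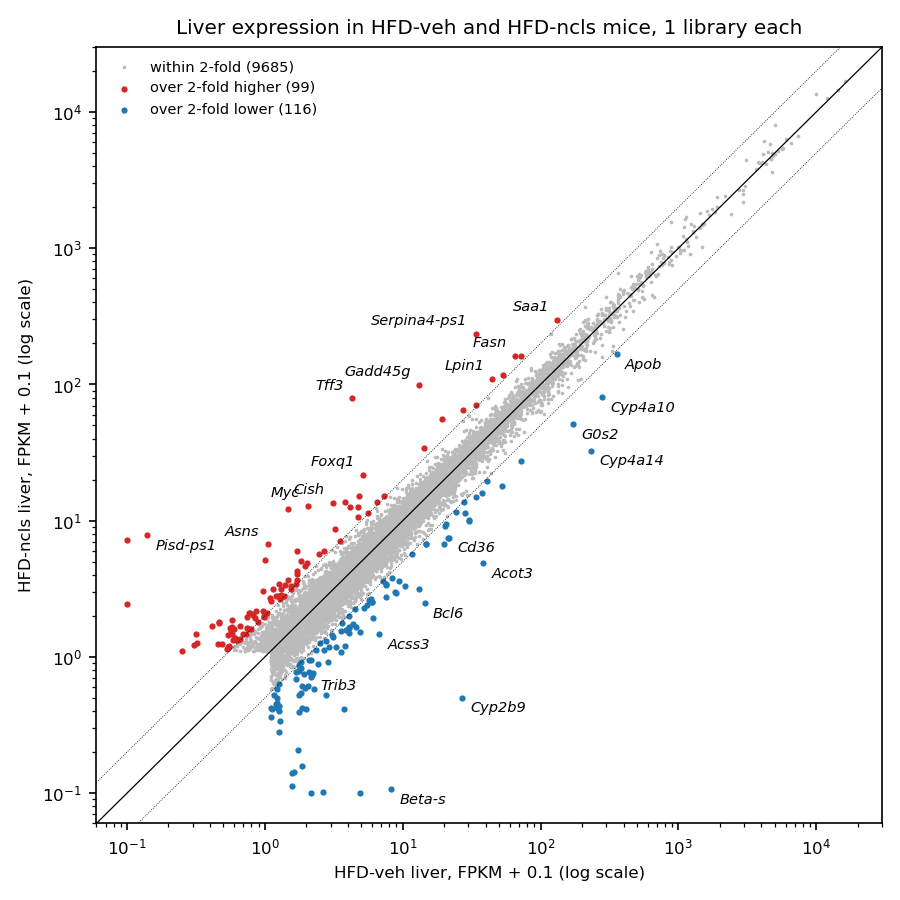
Each point is 1 of 9900 liver genes, by its FPKM + 0.1 in HFD-veh (horizontal, log scale) and HFD-ncls (vertical, log scale). The solid line marks equal levels and the dotted lines 2-fold differences; 99 genes lie above the upper and 116 below the lower dotted line.

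The libraries also differed in features that are not particular to a pathway. From low FPKM values that lie on steps of whole fragments, the depth was about 22400000 fragments for HFD-veh and 23600000 each for HFD-ncls and NCD-veh, so depth was similar. Of 300 muscle-enriched genes with a value in all liver libraries, 176 were highest in the HFD-veh liver. The share of all genes that were highest there was not counted. A list of skeletal muscle markers summed to 87.9 FPKM in HFD-veh, against 5.66 in HFD-ncls and 5.33 in NCD-veh. The 56 muscle-enriched genes set aside had a median log2 change of -0.10. Of these, 14 were over 2-fold lower in HFD-ncls and 1 was over 2-fold higher, Chac1 (4.41 FPKM in HFD-ncls against 1.82). Myh4, a fast muscle myosin, has no value in muscle and so passed the rule, with 4.82 FPKM in HFD-veh and a listed 0 in the other livers. The change also moved with transcript length. Among genes whose longest annotated transcript is up to 1000 bases the median log2 change was 0.12, and it went down in steps to -0.25 among the 336 genes over 8000 bases. HFD-ncls against NCD-veh had medians of 0.09 and -0.18 for the same classes, whereas HFD-veh against NCD-veh had -0.03 and 0.06, so long transcripts were low in the HFD-ncls library. Of the genes over 8000 bases, 3 were over 2-fold higher and 10 over 2-fold lower. The median length was 2226 bases for genes over 2-fold higher, 3292.5 for genes over 2-fold lower and 2944 for all. The part of this trend in the results was not tested, and values adjusted for length are given where they cross the 2-fold line.

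**Figure D2:**
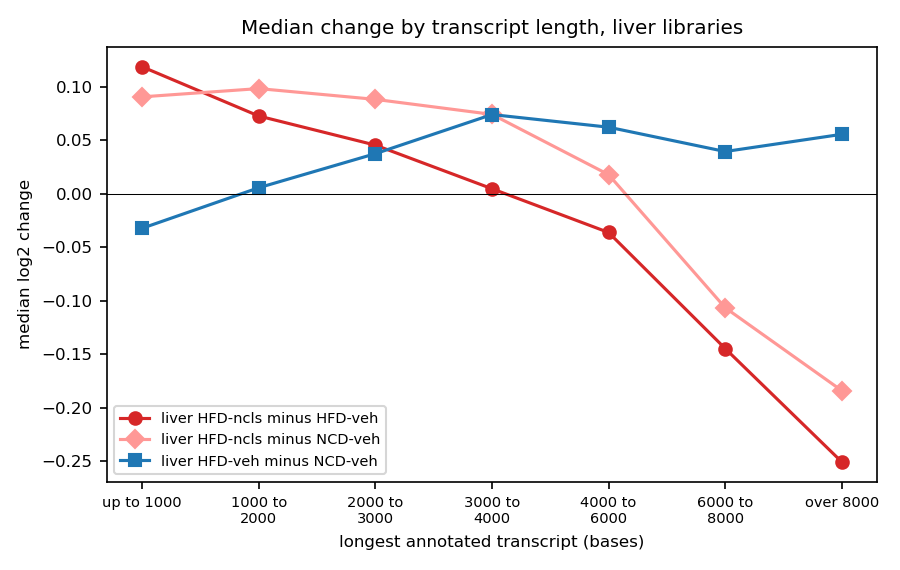
Median log2 change (vertical) of genes grouped by the length of their longest annotated transcript in bases (horizontal), for the 3 pairs of liver libraries. HFD-ncls minus HFD-veh goes from 0.12 for the shortest to -0.25 for the longest genes, while HFD-veh minus NCD-veh stays between -0.03 and 0.07.

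The genes were grouped into 33 lists of pathways and processes and 11 lists of cell type markers. Where higher or lower members of a list are counted, the share to set beside them is the 52.5% of all genes that were higher. Of 844 distinct members measured, 18 were over 2-fold higher and 26 over 2-fold lower, and 17 of the 33 pathway lists had no member past 2-fold. A single pathway list had a median past 1.5-fold, the female-biased liver genes at -0.85. That median rests on 14 of the 28 list members in the data, and some of the 14 reached 1 FPKM in HFD-veh alone. Next came the immediate-early genes at 0.48, the PPAR-alpha targets at -0.41 and the extracellular matrix genes at 0.40. All other pathway medians lay closer to the 0.02 of all genes, as the plot of the lists shows.

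**Figure D3:**
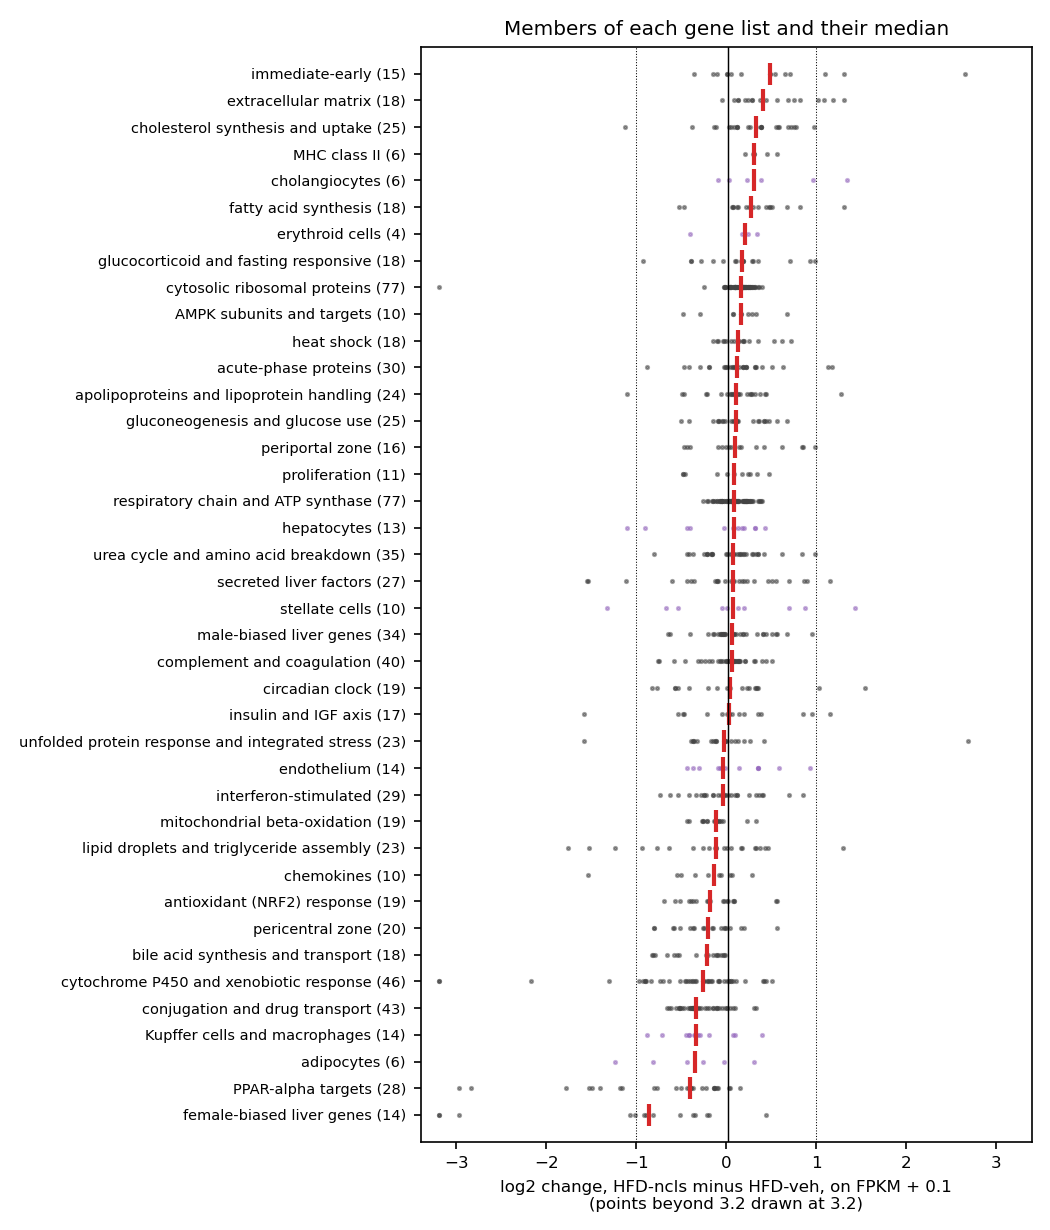
Log2 change (HFD-ncls minus HFD-veh, horizontal) of each member of the lists with at least 4 measured members; the number measured is in brackets. Red ticks are list medians, dark points members of pathway lists, purple points cell type markers, the solid line the median of all genes (0.02) and dotted lines 2-fold. The female-biased genes lie lowest (-0.85) and the immediate-early genes highest (0.48).

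Genes that make fatty acids were mostly higher in the HFD-ncls liver, and 1 of them, Fasn, passed 2-fold. Fasn, the fatty acid synthase (chr11:120667254-120685492, mm9), was at 162 FPKM in HFD-ncls, against 65.2 in HFD-veh and 11.3 for NCD-veh, a log2 change of 1.31. It was lowest on chow and highest in HFD-ncls. Of 18 measured genes of this list 16 were higher in HFD-ncls, against 52.5% of all genes, with a median of 0.27. Thrsp (Spot 14), a promoter of lipogenesis, was at 1570.2 FPKM in HFD-ncls, against 887 in HFD-veh and 27.4 for NCD-veh (0.82). Acacb, the acetyl-CoA carboxylase whose product restrains entry of fatty acids into mitochondria, was at 18.6, 11.6 and 3.02 (0.67). Thrsp and Acacb thus stood above HFD-veh but under the 2-fold line. Srebf1, the transcription factor gene that drives this pathway, was at 95.04, 69.9 and 13.3 (0.44), and Acly, which makes cytosolic acetyl-CoA from citrate, at 102, 79.7 and 18.3 (0.36). The other acetyl-CoA carboxylase gene, Acaca, differed little at 11.6, 10.99 and 3.9997 (0.07), as did Scd1, the main liver desaturase, at 1333, 1271 and 561 (0.07). The list was therefore not shifted evenly. Elovl5, which elongates polyunsaturated fatty acids, was on the other side at 173, 249 and 105 (-0.52), and so was Scd2 at 7.42, 10.3 and 3.88 (-0.47).

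Genes of cholesterol synthesis and uptake lay on the same side, with 21 of 25 higher in HFD-ncls and a median of 0.33. Mvd, which makes isopentenyl diphosphate, was at 19.8 FPKM in HFD-ncls, against 11.5 in HFD-veh and 3.79 for NCD-veh (0.77), and Dhcr7, which carries out the last step to cholesterol, at 55.5, 33.7 and 15.1 (0.72). Both were lowest in the chow-fed liver. The single member past 2-fold was lower: Stard4, a carrier of sterols between membranes, at 6.65, 14.6 and 4.45 (-1.12). Aacs, which activates acetoacetate for lipid synthesis and is in none of the lists, was chosen after its values were seen, at 64.6 FPKM in HFD-ncls, against 27.4 in HFD-veh and 2.26 for NCD-veh (1.23). Its pattern over the 3 livers resembled that of Fasn.

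**Figure D4:**
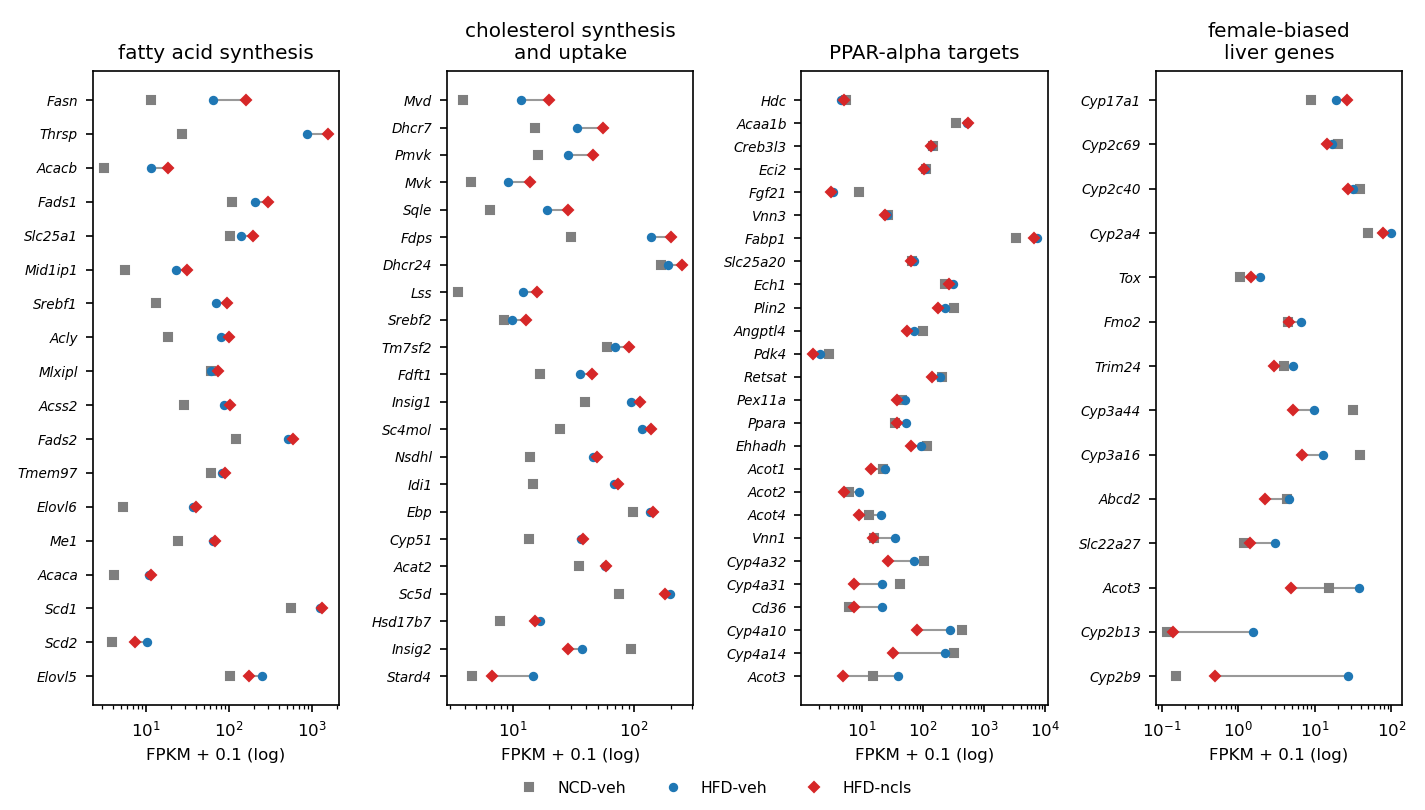
FPKM + 0.1 (horizontal, log scales that differ between panels) of measured members of 4 lists in the 3 liver libraries, each marker standing for 1 library, sorted by the change from HFD-veh (circles) to HFD-ncls (diamonds); squares are NCD-veh. Of the members drawn, diamonds lie to the right of circles for 16 of 18 fatty acid synthesis and 18 of 22 cholesterol genes, and to the left for 23 of 26 PPAR-alpha targets and 13 of 14 female-biased genes.

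Targets of PPAR-alpha were mostly lower in HFD-ncls, and this was the list with most genes past 2-fold: 8 of 28 were over 2-fold lower, none was over 2-fold higher, and the list median was -0.41. Cyp4a14, a fatty acid omega-hydroxylase (chr4:115158805-115168747, mm9), was at 32.6 FPKM in HFD-ncls, against 233 in HFD-veh and 326 for NCD-veh (-2.84), and its relative Cyp4a10 at 80.8, 277 and 438 (-1.78). For both, HFD-ncls was the lowest of the 3 livers and NCD-veh the highest. Cyp4a31 (7.42, 21.1 and 41.7) and Cyp4a32 (27.1, 72.02 and 105) had the same order. The Cyp4a genes are close copies of each other, so fragments may have been split among them, and their separate values are uncertain. Acot3, a peroxisomal acyl-CoA thioesterase, was at 4.77 FPKM in HFD-ncls, against 38.2 in HFD-veh and 15.2 for NCD-veh (-2.97). The neighbouring thioesterase genes Acot4 (8.98, 20.2 and 12.7, -1.16), Acot1 (14.1, 24.1 and 22.04, -0.77) and Acot5 (0.990, 3.44 and 2.004, -1.70, not in the list and chosen after its values were seen) were lower as well. They too share sequence, so their separate values carry the same doubt. Cd36, a fatty acid uptake receptor, was at 7.38, 21.5 and 5.98 (-1.53), and Vnn1, which releases pantothenic acid, at 14.9, 34.1 and 15.6 (-1.19). For these genes HFD-veh stood above both other livers, which were close to each other.

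Other targets differed less. Ehhadh, an enzyme of peroxisomal beta-oxidation, was at 62.9 FPKM in HFD-ncls, against 92.95 in HFD-veh and 118 for NCD-veh (-0.56), and the hormone gene Fgf21 at 3.05, 3.29 and 8.83 (-0.11). Fgf21 thus had about the same level in both HFD livers. Ppara, the receptor gene itself, was at 36.9, 52.4 and 34.3 (-0.50). Mitochondrial beta-oxidation genes were lower for 17 of 19 members, but none passed 2-fold and the median was -0.12. Cpt1a, which commits fatty acids to mitochondrial oxidation, was at 93.5, 112 and 83.4 (-0.27), and Acadm, the medium-chain acyl-CoA dehydrogenase, at 108, 144 and 108 (-0.41).

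Among 23 genes of lipid droplets and triglyceride assembly, 1 was over 2-fold higher and 3 over 2-fold lower, with a median of -0.12. G0s2, an inhibitor of the triglyceride lipase ATGL, was at 51.04 FPKM in HFD-ncls, against 173 in HFD-veh and 284 for NCD-veh (-1.76), the lowest level being in HFD-ncls. Cidec, which fuses lipid droplets, was at 2.43, 5.88 and 1.75 (-1.24), and Mogat1, an enzyme of triglyceride synthesis, at 0.546, 1.14 and 0.234 (-0.94, or -1.03 adjusted for length). Cidec and Mogat1 were highest in HFD-veh. The member past 2-fold in the other direction was Lpin1, a phosphatidate phosphatase and transcriptional coregulator, at 110.4, 44.7 and 12.4 (1.30). Plin2, the main droplet coat protein of hepatocytes, was at 176, 228 and 322 (-0.38), and Dgat2, which makes the last bond of triglycerides, at 264, 233 and 154 (0.18). Pnpla2, which encodes ATGL, was at 37.5, 33.4 and 40.6 (0.17). The triglyceride list thus held changes of both signs rather than a shift.

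Cytochrome P450 and xenobiotic genes were lower for 34 of 46 members, with a median of -0.26 and 4 members over 2-fold lower, all of family 2. The list leaves out Cyp4a10, Cyp4a14, Cyp4a31 and Cyp4a32, which are given above among the PPAR-alpha targets and were also over 2-fold lower. Cyp2b9 (chr7:26958430-26995680, mm9), which mouse livers express mainly in females, differed most: 0.403 FPKM in HFD-ncls, against 26.98 in HFD-veh and 0.0525 for NCD-veh, a log2 change of -5.75. It was high in the HFD-veh library alone. Cyp2b13, its neighbour and also female-biased, was at 0.0409, 1.47 and 0.0175 (-3.48), and Cyp2b10, the inducible family member that responds to phenobarbital, at 0.182, 1.17 and 0.697 (-2.18). These 3 genes are close copies in 1 cluster, and fragments could have been split among them. Cyp2c39 was at 1.55, 3.97 and 2.88 (-1.30). Cyp3a11, the most abundant CYP3A enzyme of mouse liver, was at 177, 330.1 and 1165 (-0.90), and Cyp2e1, which oxidizes ethanol, at 3619.7, 4779 and 3762 (-0.40). Nr1i3, the receptor CAR that induces Cyp2b10, was at 85.7, 115 and 123 (-0.43). The genes of conjugation and drug transport were lower for 36 of 43 members with a median of -0.34, yet none passed 2-fold, the range being -0.66 to 0.33. Its members were thus less spread than those of the P450 list.

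Of 28 female-biased liver genes in the data, 14 passed the filter of 1 FPKM in either HFD library and were measured. Of 14 measured female-biased liver genes, 13 were lower in HFD-ncls and 5 of them over 2-fold. In addition to Cyp2b9, Cyp2b13 and Acot3, these were Slc22a27, an organic anion transporter gene (1.35, 2.95 and 1.10), and Abcd2, a peroxisomal fatty acid transporter gene (2.16, 4.45 and 4.26). Abcd2 was barely past the line (-1.01) and inside it when adjusted for length (-0.93). Acot3 is also in the PPAR-alpha list. Cyp2b9 and Cyp2b13 reached 1 FPKM in HFD-veh alone, so they passed the filter only through the library where they were high. The male-biased genes had no such shift: 18 of 34 were higher, none passed 2-fold, and the median was 0.07. Elovl3, a male-biased fatty acid elongase, was at 80.1, 41.3 and 154 (0.95). Cyp4a12a, a male-biased omega-hydroxylase, was at 83.9, 58.8 and 65.1 (0.51). Both stood above their HFD-veh level but under the 2-fold line.

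Cish and Bcl6, both known to respond to growth hormone through STAT5 in liver, were among the 24 largest changes. Cish, a feedback inhibitor of cytokine and growth hormone signalling (chr9:107198357-107205115, mm9), was at 13.5 FPKM in HFD-ncls, against 3.02 in HFD-veh and 2.47 for NCD-veh (2.12). The chow-fed and HFD-veh livers were close to each other, and HFD-ncls stood above both. Socs2, another such inhibitor, was at 11.6, 6.38 and 11.7 (0.85), and Socs3, the family member linked to interleukin 6, at 2.13, 2.12 and 3.12 (0.00). Bcl6, a transcriptional repressor that is itself lowered by growth hormone in liver (chr16:23965138-23988938, mm9), was at 2.39, 14.3 and 13.3 (-2.53), so that HFD-ncls stood below both other livers. Onecut1, a hepatocyte transcription factor gene chosen after its values were seen, was at 10.5, 4.66 and 2.75 (1.16). Igf1, the main growth hormone-dependent hormone of liver, differed little at 167, 151 and 152 (0.14), as did the receptor gene Ghr at 184, 214 and 169 (-0.22). Prlr, the prolactin receptor gene, also chosen afterwards, was at 15.97, 37.2 and 33.4 (-1.22). Its longest transcript has 9900 bases, and adjusted for length the change was -0.98, just inside 2-fold.

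The promoters of Cish and Bcl6 are shown because the levels of these genes moved furthest in this group and the STAT palindrome TTCNNNGAA, chosen as the motif after the values were seen, is found in both. Each sequence runs 5′ to 3′ on the gene's strand from 250 bases before to 50 after the RefSeq start, on build GRCm38.p6 (the FPKM values are on mm9), and capitals mark the palindrome. The Cish promoter is at chr9:107296409-107296708 (+ strand) and holds 2 palindromes.
Cish: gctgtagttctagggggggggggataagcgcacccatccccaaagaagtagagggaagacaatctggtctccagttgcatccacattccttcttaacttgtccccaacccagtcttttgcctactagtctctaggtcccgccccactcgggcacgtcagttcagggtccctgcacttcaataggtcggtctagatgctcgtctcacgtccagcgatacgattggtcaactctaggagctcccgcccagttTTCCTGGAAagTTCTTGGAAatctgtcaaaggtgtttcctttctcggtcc
The second of the Bcl6 promoters listed is at chr16:23981234-23981533 (- strand) and holds 3 palindromes.
Bcl6: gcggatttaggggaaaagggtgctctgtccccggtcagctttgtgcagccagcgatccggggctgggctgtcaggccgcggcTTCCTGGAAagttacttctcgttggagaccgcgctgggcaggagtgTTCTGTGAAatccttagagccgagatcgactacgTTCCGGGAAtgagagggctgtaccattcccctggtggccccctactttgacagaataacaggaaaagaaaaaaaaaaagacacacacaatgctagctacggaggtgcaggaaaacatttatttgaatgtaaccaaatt
The other Bcl6 promoter holds 1. Of 7932 compared genes that matched a RefSeq promoter, 619 (7.80%) held the palindrome in at least 1 promoter. The shares were 4 of 69 genes (5.80%) among those over 2-fold higher and 6 of 89 (6.74%) among those over 2-fold lower, both below the share of all genes. A match describes the letters in this window and not binding.

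The insulin and IGF axis held 1 gene over 2-fold higher and 1 over 2-fold lower of 17, with a median of 0.03. Igfbp1, an IGF-binding protein that insulin lowers, was at 162 FPKM in HFD-ncls, against 72.7 in HFD-veh and 30.7 for NCD-veh (1.16), and Igfbp3, the main carrier of IGF1 in plasma, at 6.32, 3.21 and 3.07 (0.96). Trib3, a pseudokinase that inhibits Akt and is also a target of the stress factor ATF4, was at 0.635, 2.10 and 2.75 (-1.58). Insr, the insulin receptor gene, was at 7.86, 11.01 and 10.6 (-0.48), and Irs2, an insulin receptor substrate, at 2.01, 2.09 and 2.90 (-0.05). None of 25 genes of glucose production and use passed 2-fold, and their median was 0.11. Pklr, the liver pyruvate kinase, was at 159, 119 and 27.4 (0.42). The gluconeogenic genes Pck1 (798, 850.3 and 1048) and G6pc (323, 295 and 161) differed little between the HFD livers, with log2 changes of -0.09 and 0.13. The 10 measured AMPK subunits and targets had no member past 2-fold and a median of 0.16.

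Growth and immediate-early genes included some of the highest values relative to HFD-veh: 3 of 15 were over 2-fold higher, none over 2-fold lower, and the median was 0.48. Myc, a transcription factor of cell growth (chr15:61816946-61821929, mm9), was at 12.8 FPKM in HFD-ncls, against 1.95 in HFD-veh and 1.69 for NCD-veh (2.65). Btg2, an antiproliferative gene, was at 13.7, 6.36 and 3.43 (1.10), and Ctgf, a matrix protein induced by mechanical and TGF-beta signals, at 3.56, 1.37 and 1.21 (1.31). Fos, Jun and Egr1, the classical members, did not pass 2-fold: Fos was at 2.84, 3.04 and 0.145 (-0.10), Jun at 16.8, 15.03 and 3.18 (0.16) and Egr1 at 66.6, 47.5 and 1.89 (0.49). All of Fos, Jun and Egr1 were lowest in the chow-fed liver. Gadd45g, a stress and growth-arrest gene (chr13:51942047-51943837, mm9), was at 99.6 FPKM in HFD-ncls, against 13.1 in HFD-veh and 14.9 for NCD-veh (2.92), and Foxq1, a forkhead transcription factor, at 21.7, 5.05 and 4.64 (2.08). Like Cish and Myc, both were close in the chow-fed and HFD-veh livers and higher in HFD-ncls. The related Gadd45a was lower instead, at 3.94, 7.56 and 2.15 (-0.92). Of 11 proliferation genes measured, none passed 2-fold, and the median was 0.09.

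**Figure D5:**
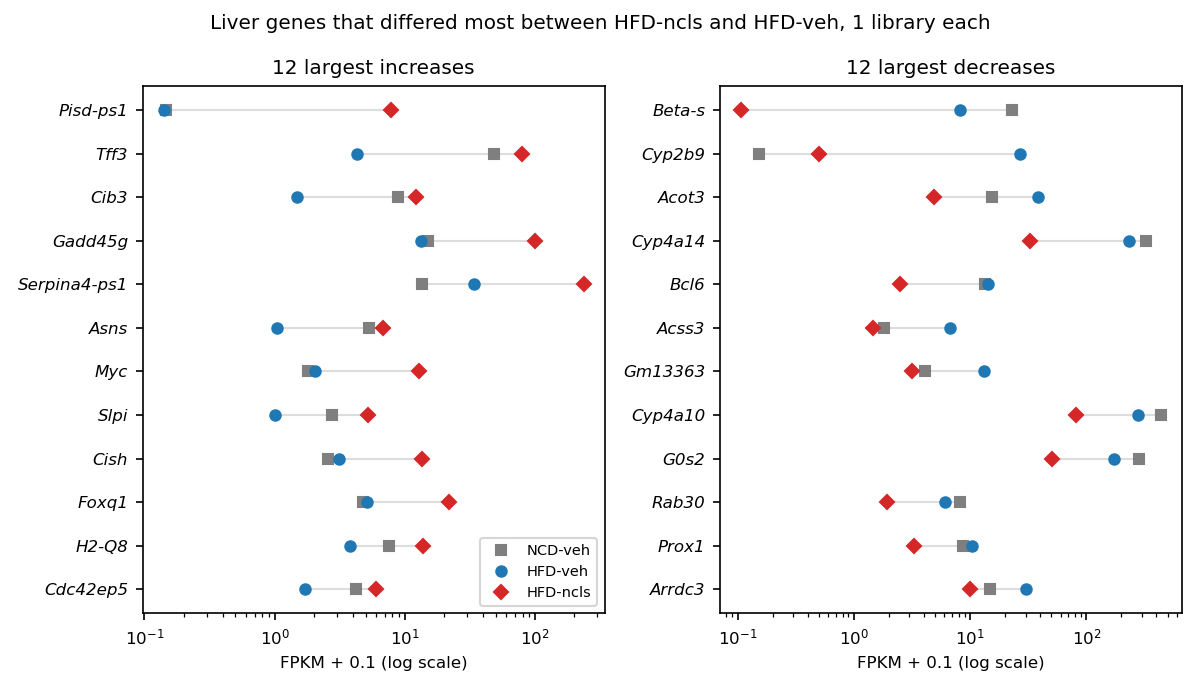
FPKM + 0.1 (horizontal, log scale) in the 3 liver libraries for the 12 genes with the largest increases and the 12 with the largest decreases from HFD-veh to HFD-ncls, among genes with at least 5 FPKM in the higher library and at least 0.001 in both. HFD-ncls stands apart from both other livers for Gadd45g, Myc, Cish, Foxq1 and Bcl6, whereas HFD-veh stands apart for Tff3, Cib3, Asns and Cyp2b9.

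Of 23 genes of the unfolded protein response and the integrated stress response, 1 was over 2-fold higher and 1 over 2-fold lower, and the median was -0.03. Asns, the asparagine synthetase and a target of ATF4 (chr6:7625169-7643254, mm9), was at 6.65 FPKM in HFD-ncls, against 0.947 in HFD-veh and 5.21 for NCD-veh (2.69), so the HFD-veh library was the low one. The opposite sign was seen for Trib3, another ATF4 target given above. Atf4 itself was at 50.6, 42.2 and 52.9 (0.26), and the stress genes Ddit3 (4.46, 4.47 and 9.61) and Hspa5 (115, 125 and 201) had changes of -0.00 and -0.12. The stress markers therefore had no common direction. The 18 heat shock genes had a median of 0.13 and the 19 genes of the antioxidant NRF2 response one of -0.18, with no member past 2-fold in either list.

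Most clock genes were similar, with 2 of 19 over 2-fold higher and a median of 0.05. Arntl (BMAL1), the core activator of the clock, was at 1.52 FPKM in HFD-ncls, against 0.457 in HFD-veh and 5.61 for NCD-veh (1.54), and Nfil3, which represses clock output genes, at 15.01, 7.28 and 22.3 (1.03). Both were highest in the chow-fed and lowest in the HFD-veh liver, and adjusted for length Nfil3 was just inside 2-fold (0.98). Dbp, a clock output gene that peaks in opposite phase to Arntl, was lower but under 2-fold at 37.7, 54.8 and 3.87 (-0.54), and so was Nr1d1, a repressor of Arntl, at 9.14, 16.2 and 19.5 (-0.82). The time of day at which livers were taken is not given per library in the labels, and its part in these values was not tested. The 18 glucocorticoid and fasting responsive genes had a median of 0.17 and no member past 2-fold. Sds, the serine dehydratase of fasting, came closest at 235, 118 and 152 (0.99).

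Bile acid genes were lower for all 18 measured members, yet none passed 2-fold and the median was -0.22. Cyp7a1, the rate-limiting enzyme of bile acid synthesis, was at 60.5 FPKM in HFD-ncls, against 105 in HFD-veh and 11.5 for NCD-veh (-0.80), and Cyp8b1, which sets the share of cholic acid, at 306, 319 and 363 (-0.06). Nr0b2 (SHP), the repressor of Cyp7a1, was at 22.6, 35.8 and 54.6 (-0.66). Cyp7a1 and its repressor were thus lower together. The export pumps Abcb11 (43.98, 65.8 and 65.1) and Abcc2 (31.1, 55.1 and 53.6) had changes of -0.58 and -0.82.

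Among 24 apolipoprotein and lipoprotein genes, Pltp, the phospholipid transfer protein, was over 2-fold higher at 34.1 FPKM in HFD-ncls, against 14.1 in HFD-veh and 13.3 for NCD-veh (1.27), and Apob was over 2-fold lower at 167, 357 and 287 (-1.10). Apob encodes the scaffold protein of very low density lipoprotein. Its longest transcript has 13934 bases, and adjusted for transcript length its change was -0.87, inside the 2-fold line. Apoa1, the main protein of high density lipoprotein, was at 13444, 9999 and 11392 (0.43), Apoe at 14408, 14289 and 13714 (0.01) and Mttp, which loads lipid onto Apob, at 75.6, 88.2 and 63.4 (-0.22). The list median was 0.11.

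Of 27 secreted liver factors, 3 were over 2-fold lower and 1 over 2-fold higher, with a median of 0.07. Gm6484, an older symbol of Angptl8, which restrains lipoprotein lipase, was at 17.99 FPKM in HFD-ncls, against 52.9 in HFD-veh and 71.4 for NCD-veh (-1.55). Inhbe, the liver activin E subunit, was at 9.38, 20.5 and 20.2 (-1.12), and Hgf, the hepatocyte growth factor made by nonparenchymal cells, at 0.337, 1.17 and 0.490 (-1.53). For Gm6484 and Inhbe, HFD-ncls was the lowest of the 3 livers. Klb, the coreceptor of Fgf21, was chosen after its values were seen and was at 3.35, 7.46 and 6.44 (-1.13).

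Of 30 acute-phase genes, 2 were over 2-fold higher in HFD-ncls, and the median was 0.12. Saa1 was at 299 FPKM in HFD-ncls, against 132 in HFD-veh and 7071 for NCD-veh (1.17) and Saa2 at 118, 53.7 and 6590.1 (1.13). These serum amyloid genes are close copies of each other, so their split is uncertain. The chow-fed liver stood far above both HFD livers for these and for other acute-phase genes, such as Lcn2 (11.6, 10.2 and 681, 0.18 between the HFD livers) and Orm2, an acid glycoprotein gene (98.3, 86.2 and 1166, 0.19). NCD-veh is therefore no low baseline for this list. The 40 complement and coagulation genes had a median of 0.06, the 29 interferon-stimulated genes one of -0.03 and the 10 chemokines one of -0.14. The single member of these past 2-fold was the eosinophil attractant Ccl24, at 0.324, 1.13 and 0.684 (-1.53). The 6 measured MHC class II genes were all higher, by log2 0.21 to 0.57.

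Extracellular matrix genes were higher for 17 of 18 members, 4 of them over 2-fold, with a median of 0.40, although their levels were low. With a pseudocount of 1 FPKM the changes of these 4 were 0.51 to 0.94, inside 2-fold. Col1a1, a chain of the main fibrillar collagen, was at 2.72 FPKM in HFD-ncls, against 1.14 in HFD-veh and 2.50 for NCD-veh (1.18). Col6a1, of the microfibrillar collagen VI, was at 3.07, 1.46 and 1.95 (1.03), and Col6a3 at 1.07, 0.453 and 0.669 (1.08), together with Ctgf above. Col3a1, another fibrillar collagen, was at 3.79, 3.08 and 3.56 (0.29). Col1a1 and Col3a1 had similar levels in HFD-ncls and NCD-veh, with HFD-veh as the low library. Genes known from the mesothelium that covers the liver, chosen after their values were seen, were higher as well: Msln, mesothelin, was at 1.68, 0.363 and 0.961 (1.94), Upk3b at 2.75, 1.20 and 1.22 (1.13) and Nkain4 at 1.36, 0.219 and 0.354 (2.20). Slpi, a protease inhibitor of epithelia and among the 12 largest increases, was at 5.06, 0.910 and 2.67 (2.35). The share of capsule or connective tissue in each piece of liver is not given, and its part in the matrix values was not tested.

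Apart from the skeletal muscle markers given above, cell type markers mostly stayed inside 2-fold. The 13 measured hepatocyte markers had a median of 0.09, with Apob as the 1 member past 2-fold. Kupffer cell and macrophage markers were lower for 11 of 14 members with a median of -0.34, and their summed FPKM was 133 in HFD-ncls, with sums of 165 for HFD-veh and 248 for NCD-veh. The genes named next, Clec4f, Vsig4, Tyrobp and Marco, were chosen after their values were seen. Clec4f, which marks Kupffer cells, was at 12.2, 16.3 and 22.9 (-0.42), and Vsig4, a complement receptor of these cells, at 5.16, 8.52 and 12.5 (-0.71). Tyrobp, a signalling adaptor of myeloid cells, was at 5.51, 10.2 and 12.6 (-0.88, or -1.01 adjusted for length). Clec4f, Vsig4 and Tyrobp were highest in the chow-fed liver and lowest in HFD-ncls. Marco, also a macrophage gene, was lowest in HFD-veh instead, at 1.12, 0.824 and 2.37 (0.40). Stellate cell markers had a median of 0.07, and Rgs5, also a pericyte gene, was over 2-fold lower (1.54, 3.99 and 1.56, -1.32). Krt19, a bile duct keratin that mesothelium also makes, was at 1.57, 0.558 and 0.702 (1.35), while the bile duct marker Sox9 was at 1.53, 1.49 and 3.74 (0.03). Endothelial markers had a median of -0.03. Of the adipocyte list, Adipoq, Lep and Retn were listed at 0, and the 6 measured members, of which Cidec, Pparg and Car3 are also made by hepatocytes, had a median of -0.35. Few lymphocyte (2), neutrophil (1), erythroid (4) and pancreas (2) markers reached 1 FPKM.

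Lists of housekeeping processes were nearly flat. The 77 genes of the respiratory chain and ATP synthase had a median of 0.09 and a range of -0.26 to 0.40. Of 77 cytosolic ribosomal protein genes 70 were higher, with a median of 0.16 and a highest value of 0.40. Ribosomal protein transcripts are short, and genes up to 1000 bases had a median of 0.12, so their median was close to that of all short genes. The exception was Rpl26, at 0.000297 FPKM in HFD-ncls against 2.07 in HFD-veh. Values this close to 0 in some libraries and not in others were also seen for Nfyc, a subunit of a CCAAT-binding factor (7.07, 0.000135 and 5.53), and Crlf3, a cytokine receptor-like gene (2.34, 6.66e-05 and 1.68). Such values may be failed estimates, and no fold is given for them. The 35 genes of the urea cycle and amino acid breakdown had a median of 0.08 with none past 2-fold. Genes typical of the periportal zone of the liver lobule had a median of 0.10 (16 genes) and those of the pericentral zone one of -0.20 (20 genes), with none past 2-fold.

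Several of the largest changes were in genes outside these lists. Tff3, a trefoil peptide of mucosal surfaces that liver also makes (chr17:31262251-31266591, mm9), was at 79.6 FPKM in HFD-ncls, against 4.17 in HFD-veh and 48.4 for NCD-veh (4.22). Cib3, a calcium-binding protein gene, was at 12.1, 1.38 and 8.75 (3.04). For both, and for Cdc42ep5, an effector of the small GTPase CDC42 (5.93, 1.61 and 4.08, 1.82), HFD-veh was the low library and HFD-ncls was the highest. Csad, a taurine synthesis enzyme chosen after its values were seen, was at 70.6, 33.998 and 96.9 (1.05). Among the decreases, Acss3, a mitochondrial acyl-CoA synthetase, was at 1.37 FPKM in HFD-ncls, against 6.67 in HFD-veh and 1.71 for NCD-veh (-2.21), and Arrdc3, an arrestin-domain gene, at 9.82, 30.1 and 14.7 (-1.61). In these genes HFD-veh was the high library. Prox1, a transcription factor of hepatocyte identity, was at 3.22, 10.2 and 8.55 (-1.63), and Rab30, a small GTPase of the Golgi, at 1.84, 5.94 and 8.14 (-1.64). For both, HFD-ncls was below the other livers.

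A further 5 of the 24 largest changes are uncertain, because the symbol is a pseudogene or has near-identical copies. Pisd-ps1, a pseudogene, was at 7.71, 0.0404 and 0.0460 (5.80). Serpina4-ps1, also annotated as a pseudogene, was at 235, 33.8 and 13.5 (2.80), and H2-Q8, of a family of MHC class I copies, at 13.7, 3.72 and 7.48 (1.85). Gm13363, another pseudogene, was at 3.06, 12.99 and 3.997 (-2.05). Beta-s, a symbol for a beta globin allele, was at 0.00704, 8.14 and 22.7 (-6.27), while the beta globin gene Hbb-b1 was at 145, 114 and 260.4 (0.34). The values of both globin symbols thus went in different directions.

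The genes past 2-fold in liver were also looked up in the other organs. Of the genes that the text names by its rule, 48 passed 2-fold in liver and were not liver-enriched. Of the 22 higher ones, 20 had at least 1 FPKM in HFD white fat, where 1 was over 2-fold higher and none over 2-fold lower (median 0.12). Over all genes of white fat that are not liver-enriched, 0.866% were over 2-fold higher and 0.219% lower. In brown fat 3 of 18 were over 2-fold higher and 1 lower (median -0.03), against 0.255% and 1.66% of all such genes there. The higher ones were S100a8 and the uncertain Pisd-ps1 and H2-Q8, and the lower one was Fasn. The liver values of S100a8 were low, at 1.04, 0.433 and 1.24 (1.09, or 0.97 adjusted for length). In muscle 4 of 15 were higher and 2 lower (median 0.21), against 1.28% and 0.656%. The 4 higher in muscle too were Cish, Col1a1, Ctgf and H2-Q8. The split of H2-Q8 among copies is uncertain, and it was at 0.000478 FPKM in HFD-veh muscle, too near 0 for a fold. Cish was at 17.6 FPKM in HFD-ncls muscle and 4.80 in HFD-veh muscle, and Col1a1 at 18.2 and 8.14. Of the 26 lower ones, 19 were measured in white fat, with 1 over 2-fold higher, Rpl26, and 1 lower, Beta-s (median -0.00). In brown fat 19 were measured, with 2 over 2-fold higher, Rpl26 and Beta-s, and 2 lower, Myh4 and Gm13363 (median -0.07). Myh4 is a muscle gene, and the values of Rpl26, Beta-s and Gm13363 are uncertain, as given above. In muscle none of the 9 measured passed 2-fold (median 0.10). Fasn went the other way outside the liver, at 171 FPKM in HFD-ncls brown fat against 348 in HFD-veh, and at 1.84 against 4.10 in muscle. In white fat Fasn was at 412 in HFD-ncls and 432 in HFD-veh. Differences between organs were not tested, since each rests on 1 library per organ and group.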

How the data were processed

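Total RNA of 12 libraries (4 organs in 3 groups) was sequenced, and the 3 liver libraries are described, with the other organs used for the muscle rule and the last comparison. Reads were mapped by the authors with TopHat (mm9), and Cufflinks gave the deposited FPKM of RefSeq genes, with 1 value per symbol and library and no further scaling stated. Of 22276 symbols, 78 have no value in a HFD liver library, Alb and Apoc2 among them. Log2 changes used a pseudocount of 0.1 FPKM and genes with at least 1 FPKM in either library. No test, interval or p-value is possible with 1 library per group. Depth was estimated from low values on steps of whole fragments and is approximate. Gene positions and transcript lengths are from GENCODE M1 (mm9) and promoters from RefSeq (GRCm38.p6). Lengths were found for 9405 genes (95%), and 7932 genes matched a promoter, 518 of them by an older symbol. Named are the 12 largest increases and decreases among genes with at least 5 FPKM in the higher library and 0.001 in both, list members past 2-fold and key members of lists. Other genes are marked as chosen after their values were seen, and some genes are not reported here. The members and lists were chosen with earlier results of these data known. Alternatives covered the pseudocount, the filter, rescaling by the median ratio, the muscle rule, values near 0 and, added after seeing the data, subtraction of the median log2 change of the 500 genes nearest in length. Scripts were tested on simulated data. Python 3.11.15, numpy 2.4.6, pandas 2.3.3 and matplotlib 3.10.9 were used.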

Additional observations from a re-analysis of the deposited data

Results flagged for a closer look

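The change from HFD-veh to HFD-ncls had opposite signs in liver and in another organ, past 2-fold in both, for 3 genes with at least 0.001 FPKM in all libraries compared, and these differences between organs were not tested because each rests on 1 library per organ and group. Fasn changed by 1.31 (log2) in liver and by -1.03 in brown fat, a difference of 2.34. In muscle Fasn changed by -1.11, a difference of 2.43 from liver. Beta-s, whose values are uncertain because beta globin symbols share sequence, changed by -6.27 in liver and 1.53 in brown fat, a difference of -7.79. The pseudogene Pisd-ps1, also uncertain, changed by 5.80 in liver and -4.80 in muscle, a difference of 10.6. Rpl26 also had opposite signs in liver and in both fats, and is left out of this count because its value in 1 library of each pair was under 0.001 FPKM. Outside the genes compared, 176 of 300 muscle-enriched genes were higher in the HFD-veh liver library than in both other liver libraries. The same share over all genes was not counted.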

How the results depend on the processing

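The counts past 2-fold depended on how low levels were treated. With a pseudocount of 1 FPKM they were 32 higher and 54 lower, with a minimum of 5 FPKM 33 and 44, and with no filter 319 and 277, against 99 and 116. With a pseudocount of 0.01 they were 119 and 133, and with both libraries set to a median ratio of 1 they were 93 and 120. Keeping the muscle-enriched genes gave 100 and 130, leaving out genes at 5 times the non-muscle median 98 and 116, and leaving out values under 0.001 FPKM 97 and 114. Adjusted for transcript length, an alternative chosen after seeing the data, they were 82 and 101, of which 78 and 95 were the same genes. The share of higher genes among those past 2-fold ran from 37.2% to 53.5%, against 46.05%. Among list medians past 1.5-fold, the sign changed in 1 case, the lymphocyte markers without a filter (-0.24). Sign changes of smaller list medians were not counted. None of the named genes past 2-fold changed sign under these alternatives. Among the others, 10 changed sign when adjusted for length and 2 when the median ratio was set to 1, with log2 changes of at most 0.10. With a pseudocount of 1, 20 of 248 named genes moved by over 1.5-fold, and 7 with 0.01. Some genes past 2-fold were inside it with a pseudocount of 1, among them the matrix genes given above. Others were Arntl (0.79), Nfil3 (0.95), Trib3 (-0.92), Hgf (-0.70), Ccl24 (-0.68) and Krt19 (0.72). Libraries could not be left out and no paired analysis was possible because each group has 1 library and the differences come from no test.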
